A study of Homo sapiens with 12 samples.

Results

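MAF, MAFF, MAFG, MAFK, NFE2L1, NFE2L2, BACH1 and BACH2 encode basic leucine zipper factors that bind related DNA sites, and their newly made RNA was followed across 4 groups of a human cell line. They are 8 of the 23434 genes counted and were found by name, through the Entrez identifier of each row. The list was selected on levels and differences of these same counts over all 4 groups, so every value of the 8 genes below is a description and carries no test.

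These factors work in pairs. The small Maf proteins MAFF, MAFG and MAFK have no activation domain, and they bind Maf recognition elements and antioxidant response elements as partners of the NFE2L activators or of the BACH repressors. NFE2L2 (NRF2) switches on detoxifying and antioxidant enzymes and is held low by KEAP1, NFE2L1 (NRF1) restores proteasome subunits when proteasome activity is short, and BACH1, which heme releases from DNA, represses heme and iron genes such as HMOX1. BACH2 is best known from lymphocytes, and MAF (c-Maf) is a large Maf protein with its own activation domain.

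The cells were U2OS-MycER, a line from a human osteosarcoma in which Myc is joined to an estrogen receptor domain, so that OHT (4-hydroxytamoxifen) activates it. EU-seq sequences only RNA made during a pulse of 5-ethynyl-uridine. The 12 libraries comprise 3 each of a non-targeting hairpin (shNT), the same with OHT (shNT_OHT), a hairpin against CDK12 (shCDK12) and the same with OHT (shCDK12_OHT). All of them received doxycycline at 1 µg/mL to induce the hairpin, were arrested with nocodazole at 100 ng/mL for 8 h, shaken off and released for 12 h, and were pulsed with 0.5 mM 5-ethynyl-uridine for 2 h, so that the controls carry the same treatments. OHT was given at 300 nM for 40 h. Each library started from 40 µg of human RNA with 10 µg of mouse RNA. Whether the infected cells were a pool or a clone, and how MycER is expressed, is not given in the sources used here.

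Libraries held from 1251695 to 10447836 counts, and the shallowest ones belonged to shNT_OHT and shNT. CDK12, the kinase targeted by the hairpin, went against 1 of its labels. It stood at 301 ± 20.5 CPM (counts scaled to library size, mean ± SD, n = 3) in shNT and 293 ± 13.9 CPM in shCDK12, a log2 difference of -0.04 ± 0.09 (standard error, adjusted p = 0.726). With OHT it was lower, at 211 ± 6.03 CPM in shCDK12_OHT against 401 ± 46.4 CPM in shNT_OHT, a log2 difference of -0.89 ± 0.11 (adjusted p = 9.25e-05). CDK12 also differed with OHT, by 0.38 ± 0.12 in shNT (edgeR, adjusted p = 0.0349) and by -0.47 ± 0.07 in the libraries labelled shCDK12 (adjusted p = 3.81e-05). The rise was not called without any 1 of the shNT libraries or shNT_OHT replicate 3. Neither was called with all libraries thinned to the smallest total. A hairpin acts on finished transcripts, so a count of newly made RNA is an indirect check, and each group is called below the libraries labelled shCDK12 or shCDK12_OHT. Whether the libraries labelled shCDK12 carry the depletion their label gives was not shown by these counts, so each difference by hairpin or OHT below holds between libraries as labelled. The osteosarcoma and mesenchymal markers RUNX2, COL1A1, SPARC and VIM were present in every library, COL1A2 and TWIST1 did not pass 1.15 CPM and ALPL did not pass 8.19 CPM. Of the markers of other cell types, PTPRC, CD3E, PECAM1 and ALB did not pass 1.32 CPM. The epithelial markers were not as low, as KRT18 lay between 352 and 573 CPM, CDH1 between 3.99 and 12.1 CPM and EPCAM between 0 and 9.55 CPM.

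MAF varied most of the 8 genes relative to its own level, with a 15.9-fold ratio between its highest and lowest group means, against 1.28-fold to 2.7-fold for the other 7. It read 243, 227 and 236 CPM in the shNT libraries and 83.1, 93.3 and 82.8 CPM in shNT_OHT. It read 11.9, 20.5 and 12.1 CPM in the libraries labelled shCDK12 and 128, 119 and 115 CPM in those labelled shCDK12_OHT. The 4 groups did not overlap, and shCDK12 was the lowest, followed by shNT_OHT, shCDK12_OHT and shNT. In the libraries labelled shCDK12 these levels rest on 50 to 195 counts.

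OHT thus accompanied opposite differences in MAF. The log2 difference was -1.49 ± 0.13 between shNT_OHT and shNT, the 28th lowest of 9954 genes, and 2.94 ± 0.15 between shCDK12_OHT and shCDK12, the 2nd highest of 12374 genes. The interaction, which subtracts the first response from the second, was 4.42 ± 0.21 and the highest of 11261 genes. Without OHT, the libraries labelled shCDK12 gave a log2 difference of -3.91 ± 0.14 from shNT, and with OHT the difference from shNT_OHT was 0.52 ± 0.13. When single libraries were left out the interaction stayed between 4.29 and 4.78, and over every setting tried between 4.29 and 5.27.

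Most of the mesenchymal markers tested moved the same way as MAF in 3 of the 4 comparisons of groups. Of the 7 markers listed 4 had enough counts in each fit, and RUNX2, COL1A1 and SPARC fell with OHT in shNT and rose with OHT in the libraries labelled shCDK12. In each of these 2 comparisons 1 of the 4 was not called. Over all genes 8.54% fell in the first and 25.6% rose in the second. RUNX2, a regulator of bone formation, gave log2 differences of -0.70 ± 0.14 (adjusted p = 0.00361) and 0.81 ± 0.09 (adjusted p = 7.07e-07). It is 1 marker given outside the rule for named genes and does not stand for the list. All of the 4 were lower in shCDK12 than in shNT, with a median log2 difference of -1.47, where 31.0% of all genes were lower. In shCDK12_OHT against shNT_OHT 2 of the 4 were lower and 0 higher, with a median of -0.45, whereas MAF was higher by 0.52. The summed level of the 7 markers ranged from 853 to 912 CPM in shNT, 664 to 738 CPM in shNT_OHT, 369 to 384 CPM in shCDK12 and 458 to 471 CPM in shCDK12_OHT. The part of cell state or cell type in the MAF values was not tested, and in these bulk libraries fewer cells of a kind and less RNA per cell cannot be told apart.

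**Figure D1:**
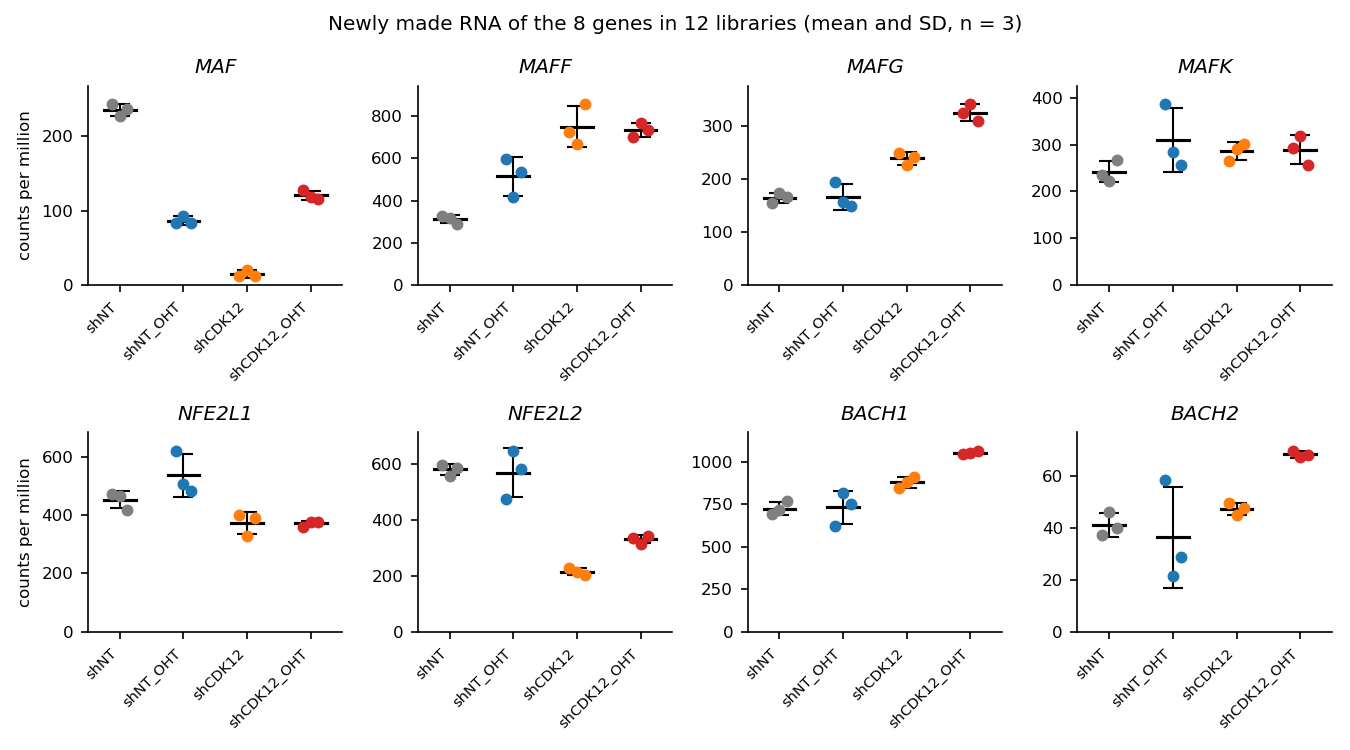
Each panel plots the CPM of 1 gene (y axis, from 0) in the 3 libraries of each of the 4 groups (x axis), with points for libraries, a line for the mean and bars for the SD. MAF separates into 4 levels, with shCDK12 lowest at 14.8 CPM and shNT highest at 235 CPM, whereas the 4 groups of MAFK overlap.

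The genes nearest to MAF over the 12 libraries were TGFBI, an extracellular matrix protein, and PLAU, the urokinase plasminogen activator. Likeness was the root mean square difference of log2(CPM + 0.5), centred per gene, and it was 0.39 for TGFBI and 0.44 for PLAU against a root mean square of 1.49 for MAF itself. TGFBI averaged 589, 352, 49.3 and 285 CPM in shNT, shNT_OHT, shCDK12 and shCDK12_OHT. PLAU averaged 169, 48.3, 11.7 and 59.0 CPM in the same order. WWOX, whose annotated span overlaps that of MAF, stayed between 4.91 and 7.83 CPM in its group means and had too few counts for most of the fits.

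The sequences before the gene starts are shown because OHT activates Myc, whose known site is the E-box CACGTG, and because these factors bind the NF-E2 core TGACTCA and the antioxidant response core TGACNNNGC. RefSeq (GRCh38.p14) gave 12 windows for 7 of the 8 genes, each with 250 bases before and 50 after a start, whereas MAFK had no entry. The letters were searched on both strands, together with the Maf recognition element by its name, of 13 bases, and the cyclic AMP response element TGACGTCA, which was added after the sequences had been read. The 250 bases before 1 start of each of 4 genes follow, 5′ to 3′ on the gene's strand, with matches in capitals.
MAF, chr16:79600738-79600987, minus strand: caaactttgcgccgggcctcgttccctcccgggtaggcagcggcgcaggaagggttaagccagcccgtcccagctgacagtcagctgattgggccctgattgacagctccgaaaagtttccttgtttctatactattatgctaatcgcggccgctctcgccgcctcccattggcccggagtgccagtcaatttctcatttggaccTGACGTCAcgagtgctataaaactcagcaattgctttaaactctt
MAFF, chr22:38201744-38201993, plus strand: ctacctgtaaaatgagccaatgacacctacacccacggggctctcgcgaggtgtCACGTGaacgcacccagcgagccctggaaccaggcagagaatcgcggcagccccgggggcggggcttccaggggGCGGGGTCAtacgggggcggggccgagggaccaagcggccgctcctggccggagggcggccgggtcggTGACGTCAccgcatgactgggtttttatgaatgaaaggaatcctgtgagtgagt
MAFG, chr17:81927736-81927985, minus strand: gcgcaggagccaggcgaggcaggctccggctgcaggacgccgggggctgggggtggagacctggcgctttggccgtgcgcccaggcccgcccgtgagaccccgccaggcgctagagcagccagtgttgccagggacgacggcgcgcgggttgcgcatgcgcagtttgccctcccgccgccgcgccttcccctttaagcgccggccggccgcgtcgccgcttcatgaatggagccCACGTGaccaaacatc
BACH1, chr21:29298672-29298921, plus strand: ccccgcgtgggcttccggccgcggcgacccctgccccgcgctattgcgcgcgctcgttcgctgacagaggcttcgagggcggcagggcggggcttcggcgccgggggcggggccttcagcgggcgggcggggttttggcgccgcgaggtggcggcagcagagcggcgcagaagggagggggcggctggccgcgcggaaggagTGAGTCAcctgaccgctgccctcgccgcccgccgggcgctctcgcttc

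Counting the last base before the start as -1, MAF held TGACGTCA at -45 and no other match. MAFF held CACGTG at -196, the reverse complement of the antioxidant response core at -122 and TGACGTCA at -54, and its other window held CACGTG at -81. MAFG held CACGTG at -16, BACH1 the reverse complement of the NF-E2 core at -48, and BACH2 TGACGTCA at -82. The windows of NFE2L1 and NFE2L2 held none of these letters. CACGTG occurs in 7.26% of all 35116 windows, TGACTCA in 4.95%, TGACNNNGC in 13.3%, TGACGTCA in 1.85% and the full Maf recognition element in 0 windows. A match describes letters and not binding, and the antioxidant and NF-E2 cores can share bases, although they did not do so in the windows printed.

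Among the small Maf genes, MAFF was lowest in shNT and roughly level in the groups labelled shCDK12 and shCDK12_OHT. It read 326, 318 and 291 CPM in shNT and 597, 415 and 533 CPM in shNT_OHT. It read 726, 666 and 856 CPM in the libraries labelled shCDK12 and 699, 765 and 736 CPM in shCDK12_OHT. The log2 difference with OHT was 0.69 ± 0.13 in shNT, where the groups did not overlap, and -0.03 ± 0.08 in the libraries labelled shCDK12, where they did. Against the matching shNT groups, MAFF was higher by 1.26 ± 0.09 without OHT and by 0.54 ± 0.12 with OHT, and the interaction was -0.76 ± 0.16. Its nearest genes were RPL41, a ribosomal protein, and TRMT112, a cofactor of methyltransferases, at 0.15 and 0.16 against 0.53 for MAFF itself. TMEM184B, which overlaps MAFF in the annotation, averaged 49.4 to 65.9 CPM and gave adjusted p-values from 0.0514 to 0.991 in the 5 comparisons (edgeR).

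MAFG, whose shNT groups overlapped, was highest in shCDK12_OHT. It read 154, 174 and 165 CPM in shNT, and 194, 156 and 148 CPM in shNT_OHT. It read 249.8, 226 and 241 CPM in the libraries labelled shCDK12 and 325, 341 and 310.1 CPM in shCDK12_OHT, each apart from the rest. The log2 difference with OHT was -0.02 ± 0.13 in shNT and 0.45 ± 0.08 in the libraries labelled shCDK12, and the differences from shNT were 0.54 ± 0.09 without and 1.00 ± 0.12 with OHT. DAGLB and INSR, the insulin receptor, were nearest to it, at 0.09 and 0.12 against 0.42 for MAFG.

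The noncoding gene MILIP (MAFG-DT), a long noncoding RNA known as Myc-inducible, overlaps MAFG in RefSeq and did not follow it. It read 9.23, 6.40 and 9.21 CPM in shNT, 26.6, 15.7 and 12.7 CPM in shNT_OHT, 9.76, 6.50 and 6.54 CPM in shCDK12 and 4.31, 4.58 and 5.57 CPM in shCDK12_OHT. It rose with OHT in shNT by 1.14 ± 0.34 (log2, adjusted p = 0.0323) and fell with OHT in the libraries labelled shCDK12 by 0.63 ± 0.25 (adjusted p = 0.0406), and the interaction passed the test at -1.84 ± 0.43 (adjusted p = 0.00163). The rise was lost without any 1 of the 3 shNT libraries (adjusted p up to 0.175) and the fall without shCDK12 replicate 1, shCDK12_OHT replicate 1 or shCDK12_OHT replicate 2 (up to 0.133). The fall was also not called by DESeq2, without a filter, with filterByExpr or with all 12 libraries in 1 fit, whereas the interaction held in every setting in which MILIP was tested. These levels rest on 18 to 82 counts. Of the 7 noncoding neighbours listed, MILIP was the 1 with a row, and the others were not analysed here.

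MAFK varied least. It read 236, 223 and 267 CPM in shNT, 387, 285 and 256 CPM in shNT_OHT, 264, 291 and 302 CPM in shCDK12 and 293, 319 and 257 CPM in shCDK12_OHT. Each pair of neighbouring groups in this order of means overlapped, and the log2 differences lay between -0.34 ± 0.18 (interaction) and 0.32 ± 0.14 (OHT in shNT). ZC3H12A, an RNase that degrades inflammatory transcripts, and ELP5, a subunit of Elongator, were nearest at 0.10 each against 0.20 for MAFK. TMEM184A, which overlaps MAFK, averaged 23.9 to 32.4 CPM.

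NFE2L2 fell into a high and a low pair of groups by hairpin. It read 596, 559 and 586 CPM in shNT and 475, 648 and 581 CPM in shNT_OHT, which overlapped. It read 228, 212 and 204 CPM in the libraries labelled shCDK12 and 336, 315 and 342 CPM in shCDK12_OHT, both below every shNT library and apart from each other. The log2 difference from shNT was -1.43 ± 0.08 without OHT and -0.74 ± 0.13 from shNT_OHT with OHT. OHT differed by -0.07 ± 0.12 in shNT and by 0.63 ± 0.08 in the libraries labelled shCDK12, and the interaction was 0.66 ± 0.14. KCTD20 and BFAR, an apoptosis regulator, were nearest at 0.11 and 0.12 against 0.60 for NFE2L2.

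NFE2L1 was also lower in the groups labelled shCDK12 and shCDK12_OHT, by less. It read 474, 466 and 419 CPM in shNT and 622, 507 and 484 CPM in shNT_OHT. It read 399, 329 and 391 CPM in shCDK12 and 361, 377 and 376 CPM in shCDK12_OHT, and these last groups overlapped each other but no shNT library. The log2 difference was -0.28 ± 0.09 without OHT and -0.50 ± 0.11 with OHT, and the response to OHT was 0.21 ± 0.12 in shNT and 0.00 ± 0.08 in the libraries labelled shCDK12. CHST3, a chondroitin sulfotransferase, and CRY2, a clock repressor, were nearest at 0.07 and 0.08 against 0.24 for NFE2L1.

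The repressor genes BACH1 and BACH2 were highest in shCDK12_OHT. BACH1 read 692, 715 and 771 CPM in shNT and 625, 819 and 754 CPM in shNT_OHT, which overlapped. It read 845, 883 and 909.6 CPM in shCDK12 and 1044.6, 1055.8 and 1067.3 CPM in shCDK12_OHT, each above the groups before it. The log2 difference with OHT was -0.02 ± 0.12 in shNT and 0.27 ± 0.07 in the libraries labelled shCDK12, and that from the matching shNT group was 0.28 ± 0.08 without and 0.56 ± 0.11 with OHT. Its nearest genes were PDCD7 and RBM12, at 0.08 each against 0.24 for BACH1.

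BACH2 read 37.2, 45.9 and 39.9 CPM in shNT and 58.4, 21.5 and 28.8 CPM in shNT_OHT, the widest spread of any of the 8 genes within a group relative to its mean. It read 49.3, 44.8 and 47.4 CPM in shCDK12 and 69.6, 67.1 and 67.9 CPM in shCDK12_OHT, which lay above all others. The log2 difference with OHT was 0.54 ± 0.10 in the libraries labelled shCDK12 and -0.17 ± 0.28 in shNT. The difference of shCDK12_OHT from shNT_OHT was 0.89 ± 0.26 and ran from 0.66 to 1.36 with 1 library left out, and over all settings the interaction ran from 0.07 to 1.18. PTPRS, a receptor phosphatase, and GRN, progranulin, were nearest at 0.15 and 0.18 against 0.49 for BACH2.

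**Figure D2:**
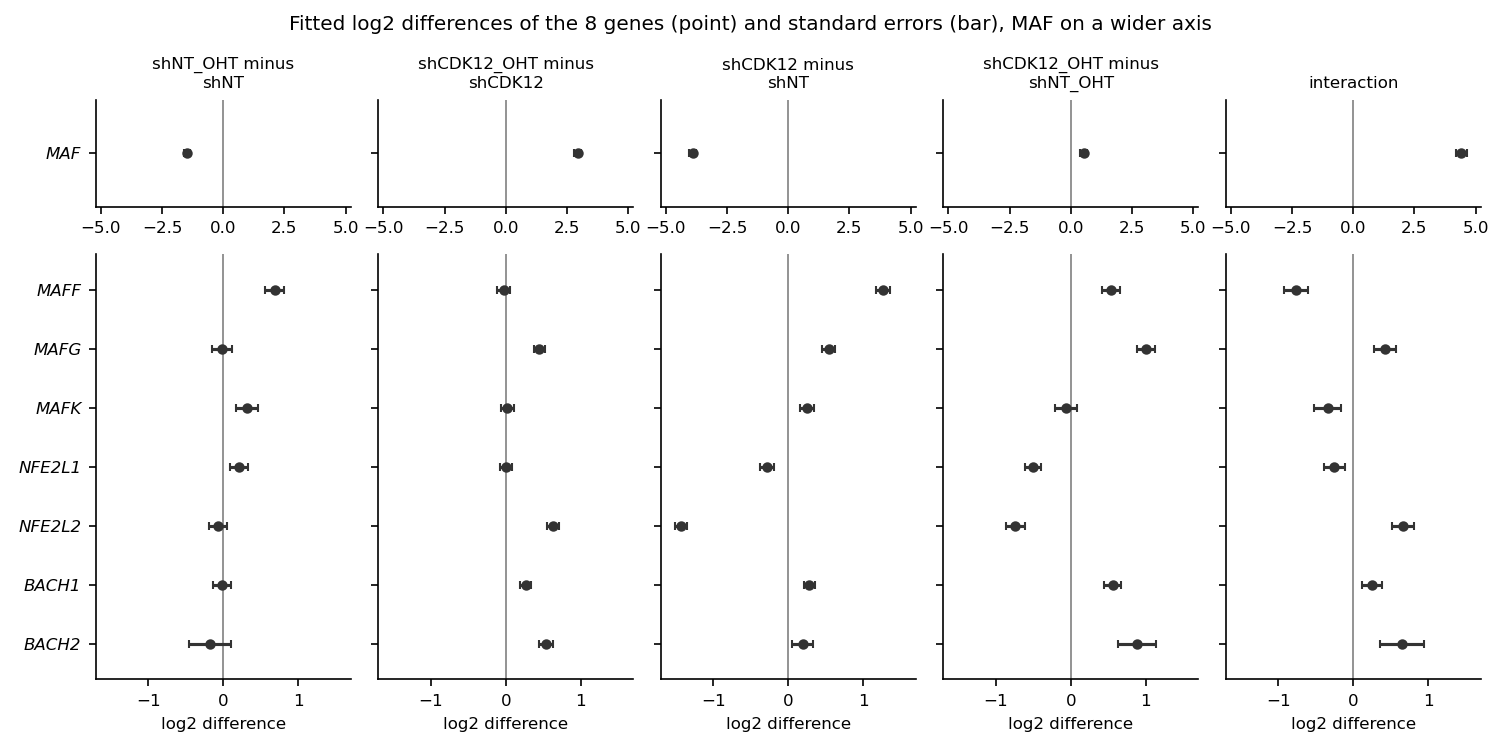
Each panel plots the fitted log2 difference (x axis) of the 8 genes (y axis) in 1 of the 4 comparisons of groups or in the interaction, with bars for the standard error and MAF on a wider axis. MAF lies at -1.49 and 2.94 in the OHT comparisons, and NFE2L2 at -1.43 and MAFF at 1.26 stand apart in shCDK12 minus shNT.

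Calls at an adjusted p-value under 0.05 are given for the 8 genes as a count beside that over all genes, and nothing is read from them. With OHT in shNT, 2 of the 8 were called beside 17.9% of 9954 genes. With OHT in the libraries labelled shCDK12, 5 of the 8 were called beside 49.4% of 12374 genes. In shCDK12 against shNT 7 of the 8 were called beside 62.6% of 11422 genes, in shCDK12_OHT against shNT_OHT 7 beside 46.3% of 11082 genes, and in the interaction 4 beside 46.0% of 11261 genes. These comparisons share groups of libraries.

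Of the other family genes reported here, NFE2L3 and MAFA had enough counts to be tested, whereas NFE2 and NRL did not pass 5.24 CPM in any library. MAFA was not tested with OHT in shNT, where it rested on 12 to 58 counts in shNT and shNT_OHT. NFE2L3 (NRF3), a relative of NFE2L1, read 29.5, 47.5 and 33.6 CPM in the libraries labelled shCDK12 and 13.6, 14.7 and 14.4 CPM in shCDK12_OHT. It fell with OHT there by 1.4 ± 0.17 (log2, adjusted p = 1.56e-06) and was higher in shCDK12 than in shNT, at 21.3 ± 4.70 CPM, by 0.87 ± 0.20 (adjusted p = 0.000361, and 0.584 with all libraries thinned to the smallest total). In shNT_OHT it spread from 9.09 to 37.1 CPM, and the log2 difference from shNT was 0.00 ± 0.39 (adjusted p = 0.996). The interaction passed the test at -1.39 ± 0.43 (adjusted p = 0.0116). MAFA, a large Maf protein of pancreatic beta cells, was higher in shCDK12 at 18.5 ± 6.46 CPM than in shNT at 7.84 ± 0.56 CPM, by 1.25 ± 0.27 (adjusted p = 0.000207), and the comparisons in which it was not called gave adjusted p-values from 0.168 to 0.334. Single libraries decided these, as MAFA was lower in shCDK12_OHT than in shCDK12 when shCDK12 replicate 1 was left out (adjusted p = 0.0178), higher in shCDK12_OHT than in shNT_OHT without shNT_OHT replicate 3 (adjusted p = 0.0121) and negative in the interaction without shNT_OHT replicate 1 (adjusted p = 0.0201). NFE2L3 was likewise lower in shCDK12_OHT than in shNT_OHT without shNT_OHT replicate 1 (adjusted p = 0.00199, against 0.272 with all libraries).

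Genes of the same pathway were taken from 3 lists, of 48 antioxidant response genes that NFE2L2 and the BACH factors are known to control, 25 regulators of the factors and 32 proteasome subunits. All counts are over genes tested. With OHT in shNT, 5 antioxidant genes of 31 rose and 3 fell, with a median log2 difference of 0.10, where 9.39% of all genes rose, 8.54% fell and the median was -0.03. SRXN1, the sulfiredoxin that restores peroxiredoxins, rose from 349.9 ± 33.4 to 624 ± 44.7 CPM, by 0.80 ± 0.11 (adjusted p = 0.00034). FTL, the ferritin light chain, rose by 0.62 ± 0.11 (adjusted p = 0.00239), CBR1, a carbonyl reductase, by 0.75 ± 0.23 (adjusted p = 0.033) and ABCC1, a glutathione conjugate exporter, by 0.65 ± 0.19 (adjusted p = 0.0322). The exporter ABCC3 fell by 1.07 ± 0.30 (adjusted p = 0.0234) and SLC48A1, a heme transporter, by 0.95 ± 0.20 (adjusted p = 0.00493). HMOX1, the heme oxygenase, fell from 118 ± 6.85 to 81.7 ± 11.6 CPM, by 0.54 ± 0.15 (adjusted p = 0.0224). SRXN1, FTL and SLC48A1 stayed called whichever library was left out. CBR1, ABCC1, ABCC3 and HMOX1 lost their calls without shNT replicate 1 or 2, all of these but ABCC3 also without shNT replicate 3, CBR1 and ABCC1 without shNT_OHT replicate 3 and CBR1 without shNT_OHT replicate 1 (adjusted p up to 0.159, 0.196, 0.14 and 0.103 in the order named). With all libraries thinned to the smallest total, CBR1, ABCC1, HMOX1 and SLC48A1 (adjusted p 0.0514) were not called. ABCC3 then had too few counts to be tested. Of the 24 antioxidant genes tested after thinning 2 rose and 0 fell.

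Regulators in the same comparison numbered 23, of which 3 rose and 1 fell, with a median of -0.02. KEAP1, the adaptor that marks NFE2L2 for degradation, rose from 95.9 ± 4.31 to 148 ± 14.2 CPM, by 0.60 ± 0.14 (adjusted p = 0.0081). AMER1 (WTX), which competes with NFE2L2 for KEAP1, rose by 0.67 ± 0.13 (adjusted p = 0.00385), and the KEAP1-binding phosphatase PGAM5 by 0.49 ± 0.12 (adjusted p = 0.0148). SEL1L, of the complex that degrades proteins of the endoplasmic reticulum, fell by 0.55 ± 0.16 (adjusted p = 0.0299). Of 31 proteasome subunits 1 passed the test, PSMC4, which rose by 0.60 ± 0.16 (adjusted p = 0.0172). That was 3.23% of the subunits, where 17.9% of all genes were called. AMER1 stayed called whichever library was left out. KEAP1, PGAM5, SEL1L and PSMC4 lost their calls without shNT replicate 1 or 2, all of these but KEAP1 also without shNT replicate 3, and SEL1L without shNT_OHT replicate 3 (adjusted p up to 0.0628, 0.0995, 0.134 and 0.109 in the order named). After thinning, PGAM5 (adjusted p 0.199), SEL1L and PSMC4 were not called.

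With OHT in the libraries labelled shCDK12, 9 antioxidant genes of 37 rose and 8 fell, with a median of -0.10, where 25.6% of all genes rose, 23.8% fell and the median was 0.01. HMOX1 read 125, 98.9 and 119 CPM before and 203, 217 and 198 CPM with OHT, a rise of 0.86 ± 0.09 (adjusted p = 2.72e-07). BLVRB, a biliverdin reductase of the same heme pathway, rose by 0.98 ± 0.25 (adjusted p = 0.00257), SLC48A1 by 0.70 ± 0.16 (adjusted p = 0.00104) and TRIM16L by 0.62 ± 0.19 (adjusted p = 0.0115, and up to 0.0733 without shCDK12 replicate 3 or shCDK12_OHT replicate 3). NR0B1, an orphan nuclear receptor, fell by 1.01 ± 0.21 (adjusted p = 0.000606), the cystine importer SLC7A11 by 0.76 ± 0.11 (adjusted p = 1.5e-05), thioredoxin TXN by 0.66 ± 0.14 (adjusted p = 0.000755) and FTL by 0.57 ± 0.07 (adjusted p = 4.13e-06). After thinning 21 antioxidant genes had enough counts to be tested, of which 1 rose and 3 fell.

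Of 25 regulators 7 rose and 6 fell there, with a median of -0.13. SQSTM1 (p62), which sequesters KEAP1, rose by 0.65 ± 0.08 (adjusted p = 2.39e-06), FBXL17, which recognises BTB proteins including BACH1, by 0.93 ± 0.21 (adjusted p = 0.00123), and the beta-TrCP genes FBXW11 by 0.56 ± 0.10 (adjusted p = 0.00019) and BTRC by 0.42 ± 0.12 (adjusted p = 0.0059). PALB2, a DNA repair protein that binds KEAP1, fell by 0.86 ± 0.09 (adjusted p = 5.52e-07), AMER1 by 0.51 ± 0.08 (adjusted p = 4.23e-05), the remodeller SMARCA4 by 0.36 ± 0.11 (adjusted p = 0.0138) and KEAP1 by 0.33 ± 0.10 (adjusted p = 0.00868). Of 32 proteasome subunits 3 rose and 6 fell, led by PSMD13 (0.51 ± 0.16, adjusted p = 0.0125), PSMB4 (0.27 ± 0.08, adjusted p = 0.0101), PSMA7 (-0.54 ± 0.12, adjusted p = 0.000876) and PSMC4 (-0.42 ± 0.11, adjusted p = 0.00368). In all 28.1% of the subunits were called, where 49.4% of all genes were. Without shCDK12_OHT replicate 3 the calls of KEAP1 (adjusted p 0.0669), SMARCA4 (up to 0.0551) and PSMD13 (0.0879) were lost, and that of SMARCA4 also without shCDK12 replicate 1 or shCDK12_OHT replicate 2. SMARCA4 and PSMB4 were not called with all 12 libraries in 1 fit. After thinning FBXW11, BTRC, AMER1, SMARCA4, PSMD13, PSMB4, PSMA7 and PSMC4 were not called (adjusted p up to 0.755, SMARCA4).

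Both OHT comparisons are fits without shared libraries, so they can be set side by side. Of 30 antioxidant genes in both, 6 were called in both and each of the 6 went in opposite directions, 20% of the 30. HMOX1 and SLC48A1 were lower and then higher, whereas FTL, SRXN1, ABCC1 and GCLC, the catalytic subunit of glutathione synthesis, were higher and then lower. Of 23 regulators KEAP1, AMER1 and SEL1L were called in both and in opposite directions, 13.0%. Over all genes in both fits this held for 1377 of 9913 genes, 13.9%, while 33 genes were called in both with the same sign. Opposite responses were thus common in these libraries and are not particular to the lists. What they and the level of CDK12 say of the labels was not tested.

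**Figure D3:**
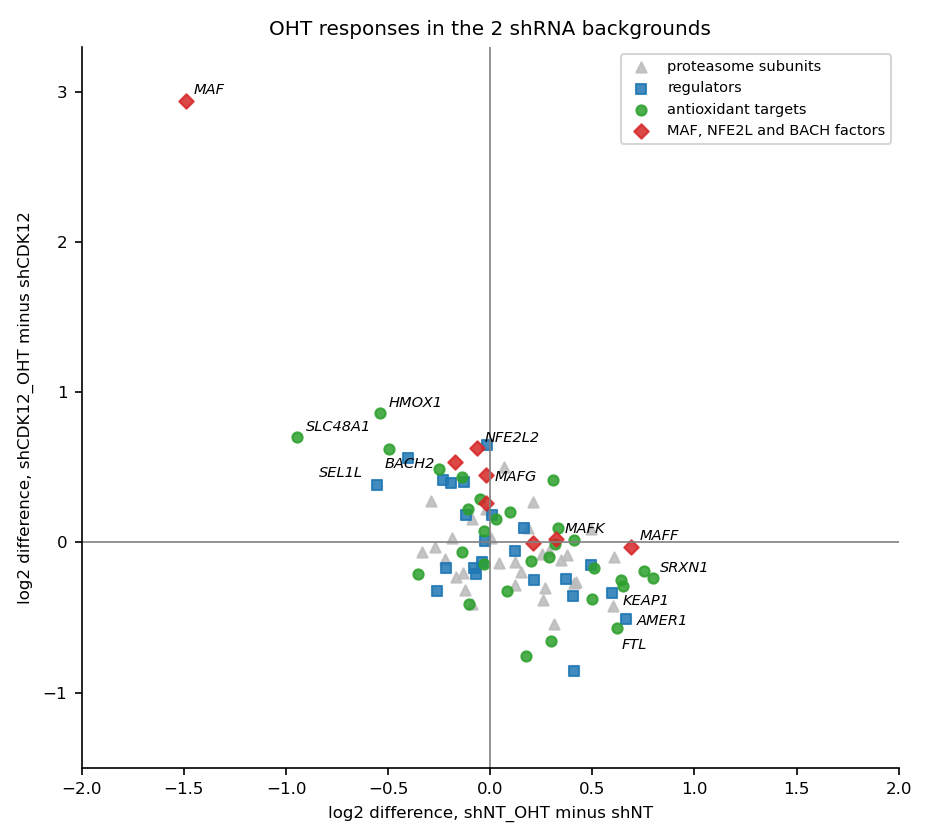
Each point is a gene, with its log2 difference with OHT in shNT (x axis) and in the libraries labelled shCDK12 (y axis), for the 8 factors, antioxidant targets, regulators and proteasome subunits. MAF lies far from all others at -1.49 and 2.94, with HMOX1 and SLC48A1 on its side of both axes and FTL, SRXN1, KEAP1 and AMER1 on the opposite side.

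The difference between the OHT responses was tested as the interaction, in which 6 antioxidant genes of 36 were higher and 12 lower, with a median of -0.30, where 23.6% of all genes were higher, 22.4% lower and the median was 0.03. On the higher side were SLC48A1 by 1.61 ± 0.26 (adjusted p = 3.48e-05), BLVRB by 1.47 ± 0.38 (adjusted p = 0.00319), HMOX1 by 1.35 ± 0.17 (adjusted p = 1.96e-06) and ABCC3 by 1.27 ± 0.39 (adjusted p = 0.0104). On the lower side were NR0B1 at -2.24 ± 0.42 (adjusted p = 0.000176), FTL at -1.23 ± 0.14 (adjusted p = 5.29e-07), SRXN1 at -1.07 ± 0.14 (adjusted p = 2.88e-06) and the exporter ABCC2 at -1.23 ± 0.43 (adjusted p = 0.0249). ABCC2 lost its call without shNT replicate 1, shNT replicate 3, shNT_OHT replicate 3, shCDK12 replicate 2 or shCDK12_OHT replicate 3 (adjusted p up to 0.0788), and SLC48A1 after thinning (0.0711). The thinned fit tested 23 antioxidant genes, of which 2 were higher and 5 lower.

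Of 24 regulators 6 were higher and 5 lower in the interaction, with a median of -0.10. FBXL17 (1.45 ± 0.42, adjusted p = 0.00752), FBXW11 (0.92 ± 0.19, adjusted p = 0.000539), SEL1L (0.91 ± 0.19, adjusted p = 0.000484) and SQSTM1 (0.62 ± 0.15, adjusted p = 0.00211) were higher. PALB2 (-1.30 ± 0.19, adjusted p = 1.19e-05), AMER1 (-1.21 ± 0.16, adjusted p = 4.42e-06), KEAP1 (-0.97 ± 0.17, adjusted p = 8.6e-05) and SMARCA4 (-0.83 ± 0.26, adjusted p = 0.0142, 0.0574 without shNT replicate 2 and 0.784 after thinning) were lower. Of 32 proteasome subunits 7 were called, each on the lower side, led by PSMC4 (-1.07 ± 0.20, adjusted p = 0.0002) and PSMA7 (-0.90 ± 0.21, adjusted p = 0.00189). That was 21.9% of the subunits, near the 22.4% of all genes that were lower, and 23.6% of all genes were higher. The median of the subunits was -0.26.

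**Figure D4:**
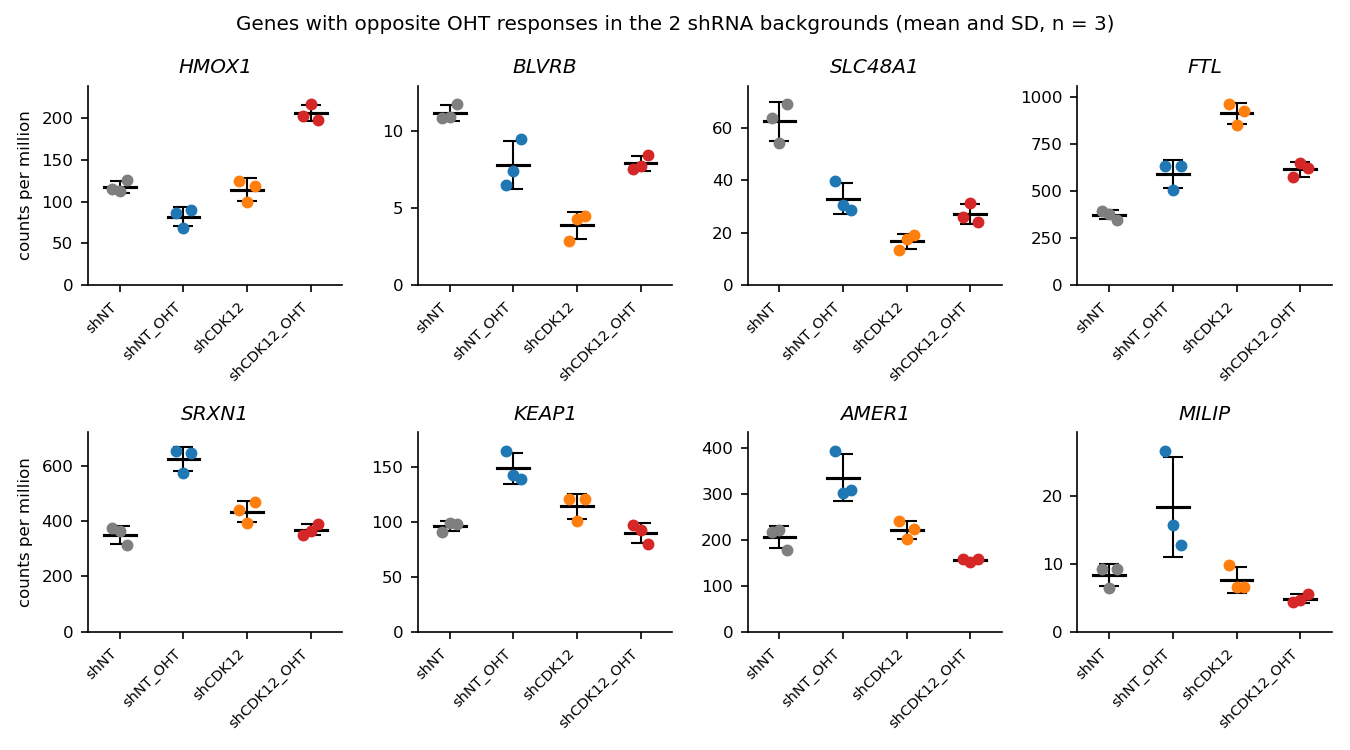
Each panel plots the CPM of 1 gene (y axis, from 0) in the 3 libraries of each group (x axis), with points for libraries, a line for the mean and bars for the SD, for 8 genes chosen for opposite OHT responses. HMOX1, BLVRB and SLC48A1 are lower with OHT in shNT and higher with OHT in the libraries labelled shCDK12, and the remaining 5 genes show the reverse. BLVRB had too few counts for the fit with OHT in shNT.

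Without OHT, the libraries labelled shCDK12 differed from shNT in 21 of 37 antioxidant genes, 10 higher and 11 lower, with a median of 0.02, where 31.6% of all genes were higher and 31.0% lower. FTL rose from 374 ± 23.4 to 915 ± 55.7 CPM, by 1.29 ± 0.08 (adjusted p = 1.38e-13), and TXN by 1.31 ± 0.21 (adjusted p = 3.46e-06). ABCC2 rose by 1.00 ± 0.31 (adjusted p = 0.00699, and 0.051 without shNT replicate 1) and NR0B1 by 0.93 ± 0.29 (adjusted p = 0.0065, and 0.0782 without shNT replicate 2). ABCC3 fell by 2.24 ± 0.26 (adjusted p = 2.86e-08), SLC48A1 by 1.87 ± 0.16 (adjusted p = 1.27e-10), TRIM16L by 1.71 ± 0.20 (adjusted p = 2.7e-08) and BLVRB by 1.47 ± 0.29 (adjusted p = 7.95e-05). Chosen after their values were seen, as textbook targets of NFE2L2, the glutathione synthesis genes GCLC and GCLM went apart, at 0.92 ± 0.11 (adjusted p = 2.38e-08) and -0.86 ± 0.17 (adjusted p = 7.29e-05), while NQO1 gave 0.07 ± 0.17 (adjusted p = 0.75). After thinning 22 antioxidant genes had enough counts to be tested, of which 3 were higher and 3 lower.

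In that comparison 6 of 24 regulators were higher and 6 lower, with a median of 0.09. FBXW7, a ubiquitin ligase adaptor, rose by 0.89 ± 0.10 (adjusted p = 1.55e-08), PALB2 by 0.78 ± 0.11 (adjusted p = 4.78e-07), the O-GlcNAc transferase OGT by 0.50 ± 0.09 (adjusted p = 2.11e-05) and PGAM5 by 0.49 ± 0.09 (adjusted p = 3.19e-05). FBXW11 fell by 0.70 ± 0.13 (adjusted p = 3.46e-05), SQSTM1 by 0.45 ± 0.09 (adjusted p = 0.000121), SEL1L by 0.40 ± 0.12 (adjusted p = 0.00563) and BTRC by 0.41 ± 0.14 (adjusted p = 0.0128, and 0.0934 without shCDK12 replicate 3). Of 32 proteasome subunits 6 were higher and 8 lower, with PSMD12 (0.55 ± 0.13, adjusted p = 0.000493) and PSMA1 (0.53 ± 0.14, adjusted p = 0.00184) leading the rises, and PSMD13, which fell from 74.2 ± 3.36 to 21.9 ± 3.63 CPM (-1.74 ± 0.15, adjusted p = 7.71e-11), and PSMD7 (-0.62 ± 0.10, adjusted p = 5.7e-06) the falls. After thinning BTRC (adjusted p 0.741), SEL1L (0.0791) and PSMA1 (0.278) were not called.

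With OHT present, shCDK12_OHT differed from shNT_OHT in 11 of 35 antioxidant genes, 2 higher and 9 lower, with a median of -0.19, where 23.3% of all genes were higher, 22.9% lower and the median was 0.02. The genes that rose were HMOX1, by 1.35 ± 0.13 (adjusted p = 2.58e-05), and FTH1, the ferritin heavy chain, by 0.75 ± 0.12 (adjusted p = 0.000483). CBR1 fell by 1.66 ± 0.22 (adjusted p = 0.000171), SLC7A11 by 1.33 ± 0.15 (adjusted p = 8.67e-05), the glutathione peroxidase GPX2 by 1.27 ± 0.27 (adjusted p = 0.00325) and NR0B1 by 1.27 ± 0.30 (adjusted p = 0.00516). The thinned fit tested 23 antioxidant genes, of which 2 were higher and 3 lower.

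Regulators numbered 24 in this comparison, 4 higher and 4 lower, with a median of 0.06. FBXL17 rose by 1.02 ± 0.31 (adjusted p = 0.0204), FBXW7 by 0.81 ± 0.15 (adjusted p = 0.00146), the kinase GSK3B by 0.70 ± 0.14 (adjusted p = 0.00212) and SEL1L by 0.54 ± 0.14 (adjusted p = 0.00911). AMER1 fell by 1.08 ± 0.12 (adjusted p = 5.95e-05), KEAP1 by 0.69 ± 0.13 (adjusted p = 0.00149), SMARCA4 by 0.68 ± 0.20 (adjusted p = 0.0157) and PALB2 by 0.49 ± 0.15 (adjusted p = 0.0236). Of 32 proteasome subunits 2 were higher, PSMA1 (0.79 ± 0.18, adjusted p = 0.00486) and PSMC2 (0.36 ± 0.13, adjusted p = 0.0396), and 13 lower, led by PSMD13 (-1.29 ± 0.19, adjusted p = 0.000326) and PSMC4 (-1.24 ± 0.14, adjusted p = 8.13e-05), with a median of -0.22. The calls of FBXL17, SEL1L, SMARCA4, PALB2 and PSMC2 were each lost without shCDK12_OHT replicate 1 (adjusted p up to 0.151, PSMC2). They were also lost without shCDK12_OHT replicate 2 for SMARCA4, PALB2 and PSMC2, without shCDK12_OHT replicate 3 for FBXL17, SMARCA4, PALB2 and PSMC2, without shNT_OHT replicate 3 for FBXL17 and PALB2, and without shNT_OHT replicates 1 or 2 for PSMC2. PSMC2 was also not called by DESeq2, without a filter, with filterByExpr or with the replicate block, and SMARCA4 (adjusted p 0.295), PALB2 (0.305) and PSMA1 (0.122) were not called after thinning.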

How the data were processed

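Newly made RNA of 12 libraries was analysed from 1 table of raw counts, which the authors deposited per Entrez gene and without normalization. The submitters' processing notes name STAR 2.7.5c, featureCounts 1.4.5-p1 and hg19. The annotation, the use of strand and the handling of the added mouse RNA are not given in the sources used here. If reads were not assigned by strand, counts of MAF, MAFF, MAFG and MAFK may include reads of the overlapping genes, as may those of CBR1, FTH1, GPX2, PSMC2, SLC48A1, SLC7A11 and SQSTM1. TRIM16L, FTL, FTH1 and RPL41 have near-identical copies and are less certain. The table has no mouse rows, so a change in total RNA cannot be seen. Symbols came from RefSeq (GRCh38.p14) for 23284 of 23434 rows.

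Counts were fitted with edgeR 4.0.16 in R 4.3.3 (TMM normalization, quasi-likelihood test, Benjamini-Hochberg adjustment, threshold 0.05) on genes whose mean normalized count passed 32. Comparisons of 2 groups used their 6 libraries, and the interaction all 12. CPM use column totals scaled by the TMM factors of all 12 libraries. Alternatives were DESeq2 1.42.0, upper-quartile normalization, no filter, filterByExpr, the replicate number as a block, all libraries in 1 fit, thinning to 1251695 counts and leaving out each library. On simulated counts with 2-fold changes the fits recovered 156 of 179 changed genes with OHT in shNT and 183 of 200 with OHT in the libraries labelled shCDK12. They recovered 170 of 192 in shCDK12 against shNT, 172 of 191 in shCDK12_OHT against shNT_OHT and 119 of 200 in the interaction. False calls numbered 6 to 13. The simulation changed 200 genes in 1 group, far fewer than were called in the data. Normalization and false calls under changes as wide as in the data were therefore not tested.

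The members and lists were chosen with earlier results of these data known. Named genes are the 8 factors, CDK12, the listed relatives and noncoding neighbours, up to 4 antioxidant genes and 4 regulators (2 proteasome subunits) with the largest called change each way and no overlap between groups, and the 2 genes nearest to each factor. RUNX2, GCLC, GCLM and NQO1 are given in addition, outside this rule. Of the listed genes, 2 are not reported here. The replicates are known only as separate samples, so p-values measure the spread between these samples, which may be technical. Promoter windows are on GRCh38.p14 and the counts on hg19, and no coordinate was carried between them. A comparison of the proteins was not run, since no protein table was at hand.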

Additional observations from a re-analysis of the deposited data

Results flagged for a closer look

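These genes had opposite responses to OHT in shNT and in the libraries labelled shCDK12, with no overlap between the libraries with and without OHT in either background. For MAF the difference of the responses was 4.42 on the log2 scale and was not tested, because the gene had been chosen on these values. On the same side were SLC48A1 (1.61), BLVRB (1.47), HMOX1 (1.35) and SEL1L (0.91), each with an interaction past the threshold in edgeR. On the other side were NR0B1 (-2.24), MILIP (-1.84), FTL (-1.23), AMER1 (-1.21), SRXN1 (-1.07), PSMC4 (-1.07) and KEAP1 (-0.97), each also past it. CDK12, the check of the labels, met the same description, with an interaction of -0.89 ± 0.14 (edgeR, adjusted p = 2.43e-05, and 0.0516 after thinning). ABCC1 also had opposite responses without overlap, so the list is not complete. BLVRB and NR0B1 had too few counts for the fit with OHT in shNT, so their responses there were not tested. In shNT and shNT_OHT their levels rest on 9 to 58 counts for BLVRB and 12 to 59 counts for NR0B1. Over all genes, 71.0% of the 9913 genes in both fits had opposite signs.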

How the results depend on the processing

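No called value reversed under any alternative. Of 40 differences of the 8 factors, 21 kept their direction and side of the threshold under every alternative, 7 lost a call, 5 gained one and 8 without a call changed sign. The 8 factors were chosen on these same counts, so their tally describes the settings and nothing is read from it. Of 107 differences of other named genes, 61 kept both wherever they were tested, 39 lost a call, 4 gained one and 3 without a call changed sign. A difference that the filter left untested under an alternative was not counted as lost, so the tally says less of genes with few counts. The replicate numbers were not shown to pair the libraries of all groups. Of same-number correlations 3 of 18 were over 0.1 (from -0.105 to 0.341), against 0 of 36 with different numbers (from -0.372 to 0.0949). The highest same-number values joined shNT_OHT and shCDK12, at 0.305 for replicate 1 and 0.341 for replicate 2. With a replicate block 1708, 6161, 7311, 4665 and 5297 genes were called in the 5 comparisons in the order used above.

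With OHT in shNT, 1785 genes and 8 antioxidant genes were called. All 12 libraries in 1 fit gave 3269 and 14, and thinning to the smallest total gave 808 and 2. Leaving out 1 library gave 642 to 2533 genes, lowest without shNT replicate 2 and highest without shNT_OHT replicate 1. It gave 3 to 13 antioxidant genes, lowest without shNT replicate 1 or 2 and highest without shNT_OHT replicate 2. Within shNT_OHT, replicate 1 stood apart from replicates 2 and 3, with a chi-square per gene of 8.57 and 9.31. Between replicates 2 and 3 it was 3.80. Within shCDK12 it was 6.88 between replicates 1 and 2, 4.80 between replicates 2 and 3 and 3.27 between replicates 1 and 3. The measure was taken on raw counts of pairs with unlike totals, so its values are not directly comparable. Thinning also lowered the calls with OHT in the libraries labelled shCDK12 to 1066 genes, 4 antioxidant genes and 2 of the 8 factors, in shCDK12 against shNT to 2922 and 6, in shCDK12_OHT against shNT_OHT to 1864 and 5, and in the interaction to 1815 and 7. In shCDK12_OHT against shNT_OHT the antioxidant calls were 17 with all libraries in 1 fit and 9 to 18 with 1 library left out, highest without shNT_OHT replicate 2. Thinning lowered both the counts and, through the filter, the genes tested, from 9954 to 7241 with OHT in shNT and from 12374 to 7327 with OHT in the libraries labelled shCDK12. The 4 calls gained with 1 library left out were 3 of MAFA and 1 of NFE2L3.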
